A study of Mus musculus with 6 samples.

Results

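Across the mouse genome, open chromatin is not spread evenly, and the 1 Mb windows that hold the most of it are described here. The chromosomes considered were the 16 autosomes other than 6, 8 and 11. A window was taken as dense when 100 or more regions with midpoints in it were called in all 6 libraries, and every merged region in such a window was then kept, whatever its own calls. This gave 55 dense windows out of 2018 windows with any region, and 12821 regions out of 205723 on these autosomes and 259376 in all. The windows were thus chosen by calls in these same libraries, so their number of shared regions is a description and was not tested.

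The assay was ATAC-seq, where a transposase puts sequencing adapters into accessible DNA, and the cells were mouse embryonic stem cells of the E14TG2a line. The genotypes were Alkbh5 del-cIDR, an allele that lacks the part called cIDR (in the series title, IDR is an intrinsically disordered region), Alkbh5 KO, a knockout, and WT, with 2 libraries each. All were grown in 15% serum with LIF at 1000 U/ml, the GSK3 inhibitor CHIR99021 at 3 µM and the MEK inhibitor PD0325901 at 1 µM. Spike-in nuclei (10 µl) went into every reaction. Each genotype may be 1 line, and no label states whether its 2 libraries came from different cultures. All p-values here therefore measure the spread between libraries, which may be technical.

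ALKBH5 is an enzyme that removes the methyl group of N6-methyladenosine from RNA. Open regions mark promoters, enhancers and other sites where nucleosomes are displaced, and in mammals they gather in gene-rich domains, which tend to replicate early and to lie in the active compartment of the nucleus. Gene content and sequence of the dense windows, and the marker genes of stem cells and of other cell types, are not analysed here, because no annotation of the build of the peak lists (GRCm39) was at hand. The windows are therefore called by their position.

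The dense windows lay on 12 of the 16 chromosomes. Chromosome 4 held 11 of them, chromosome 7 held 8, and chromosomes 2 and 17 held 7 each, while chromosomes 12, 13, 14 and 16 had none. Of the 55, 32 were neighbours of another dense window and formed 14 runs, and 23 stood alone. The longest runs had 3 windows, on chromosome 2 from 30 to 33 Mb, on chromosome 4 from 133 to 136 Mb and from 148 to 151 Mb, and on chromosome 7 from 27 to 30 Mb. The richest window was on chromosome 17 from 29 to 30 Mb, with 137 regions called in all 6 libraries among 261 members. It was followed by chromosome 7 from 28 to 29 Mb (134 of 259), chromosome 10 from 80 to 81 Mb (129 of 247), chromosome 7 from 44 to 45 Mb (128 of 250), and chromosome 3 from 89 to 90 Mb (123 of 229). The next were chromosome 17 from 28 to 29 Mb (123 of 249), chromosome 7 from 24 to 25 Mb (120 of 244) and from 27 to 28 Mb (118 of 224), and chromosome 15 from 76 to 77 Mb (116 of 245) and from 79 to 80 Mb (116 of 248). The 55 windows had a median of 107 such regions, against 33 over all windows.

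The limit of 100 cuts through a continuous range. Just inside it lay chromosome 3 from 96 to 97 Mb and chromosome 4 from 149 to 150 Mb, with 100 shared regions each, and, with up to 2 more, chromosome 2 from 152 to 153 Mb and chromosome 4 from 140 to 141 Mb. Just outside lay chromosome 2 from 29 to 30 Mb with 98, chromosome 4 from 132 to 133 Mb with 98 and from 139 to 140 Mb with 97, and chromosome 5 from 112 to 113 Mb with 98. In all, 10 dense windows exceeded the limit by at most 2 shared regions, and 14 other windows missed it by at most 3.

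A dense window held 189 to 273 merged regions, and these covered 8.48% to 11.8% of its length, with a median of 10.3%, against a median of 3.48% in the other windows. Of the 12821 members, 6034 (47.1%) were called in all 6 libraries and 2656 (20.7%) in a single library, against 37.5% and 25.4% of the 192902 remaining regions of the same autosomes. The other members had calls in 2 libraries (1247), 3 (936), 4 (949) or 5 (999). The gap to the nearest neighbouring region had a median of 1411 bp in dense windows and 2251 bp elsewhere. Spacing and shared calls follow from the way the windows were chosen.

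Merged regions called in all 6 libraries had a median width of 571.5 bp in dense windows and 552 bp elsewhere. Over all peaks, which include more shared regions in dense windows by the choice of windows, peaks in dense windows were wider in each of the 6 libraries. The median peak width in dense windows was 340 and 349 bp in del-cIDR, 338 and 353 bp in KO, and 315 and 314 bp in WT. In the remaining windows it was 303 and 307 bp in del-cIDR, 299 and 313 bp in KO, and 277 and 275 bp in WT. Width goes with the height of a peak, and dense windows also had taller summits, and a difference in width apart from height and shared calls was not tested.

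Height is given in tags, the number of overlapping tags at the summit, as solved from the deposited fold and p of each peak. For regions shared by all 6 libraries, summits in dense windows had a median of 43 and 42 tags in del-cIDR, 47 and 36.5 tags in KO, and 43 and 48 tags in WT. The remaining regions had medians of 31 and 30 tags in del-cIDR, 32 and 25 tags in KO, and 32 and 35 tags in WT. Summits of 100 tags or more made up 15.0% of the 6034 shared regions of dense windows and 9.61% of the shared regions elsewhere. Dense windows were thus taller in all 6 libraries, by 1.34 to 1.47 times. Calls depend on height, and the windows were chosen by calls in these libraries, so this is a description and was not tested. The tallest single regions show the range. In the richest window, the tallest region was chr17:29709070-29710300, with 239 and 235 tags in del-cIDR, 284 and 213 in KO, and 207 and 230 in WT. In the next richest it was chr7:28135668-28136848, with 310 and 313 tags in del-cIDR, 388 and 297 in KO, and 281 and 328 in WT. Raw tags follow the depth of a library, so genotypes were compared only after each list was scaled to its own median.

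The local background against which a peak was called was also higher in dense windows. Its median was 2.65 to 3.24 tags for peaks in dense windows and 1.28 to 1.61 tags for the remaining peaks, over the 6 libraries. Peaks in dense windows were also taller, with medians of 27 to 31 tags against 17 to 20, and the background at like height was not compared. The lists held 116779 to 155260 peaks on these 16 autosomes, and the WT lists were longer than each mutant list.

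Set against the remaining regions of the same list, dense windows stood highest in KO. The median log2 height of dense minus remaining regions was 0.47 and 0.49 in the del-cIDR libraries, 0.55 and 0.55 in the KO libraries, and 0.43 and 0.46 in the WT libraries. No genotype overlapped another. KO averaged 0.55 ± 0.01 and WT 0.44 ± 0.02 (SD, n = 2 each), a difference of 0.11. The del-cIDR libraries averaged 0.48 ± 0.01 (SD, n = 2), which was 0.04 above WT and -0.07 relative to KO. With 2 libraries against 2 an exact permutation test cannot give a two-sided p below 0.3333, and each of these 3 comparisons gave an exact permutation p of 0.3333. Without the chromosome 4 window described further on, del-cIDR stood 0.06 above WT.

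**Figure D1:**
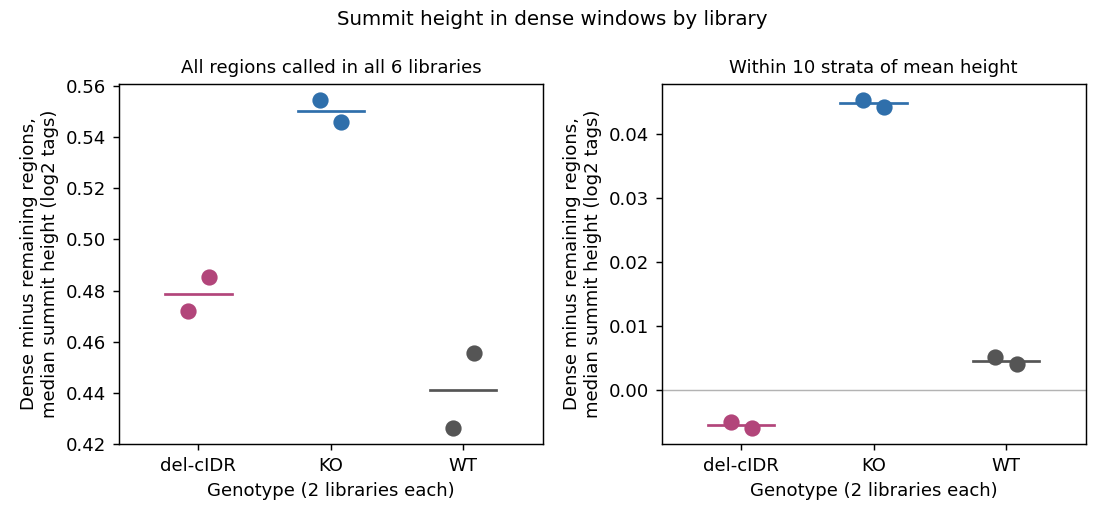
Median summit height of dense minus remaining regions (log2 tags) in each library, for regions called in all 6 libraries (left) and averaged over 10 strata of mean height (right); points are libraries and bars are genotype means. The 2 KO libraries lie above the others in both panels, at 0.55 on the left and 0.05 and 0.04 on the right.

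The KO difference went with the height of the regions. Relative to WT, tall regions were taller in KO in dense and remaining windows. In the highest of 10 strata of mean height the median difference of KO from WT was 0.31 log2 for dense regions and 0.29 for the remaining ones, and in the fourth stratum, with a median of 23.7 tags, it was 0.03 and -0.02. When dense and remaining regions were compared inside these strata, dense minus remaining was 0.05 and 0.04 log2 in the KO libraries and 0.005 and 0.004 in the WT libraries. The difference of KO from WT was then 0.04 in place of 0.11. In del-cIDR it was -0.01 relative to WT, the other sign than without strata. Tall regions were also taller in del-cIDR than in WT, by 0.11 log2 in the highest stratum, in dense and remaining windows alike.

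**Figure D2:**
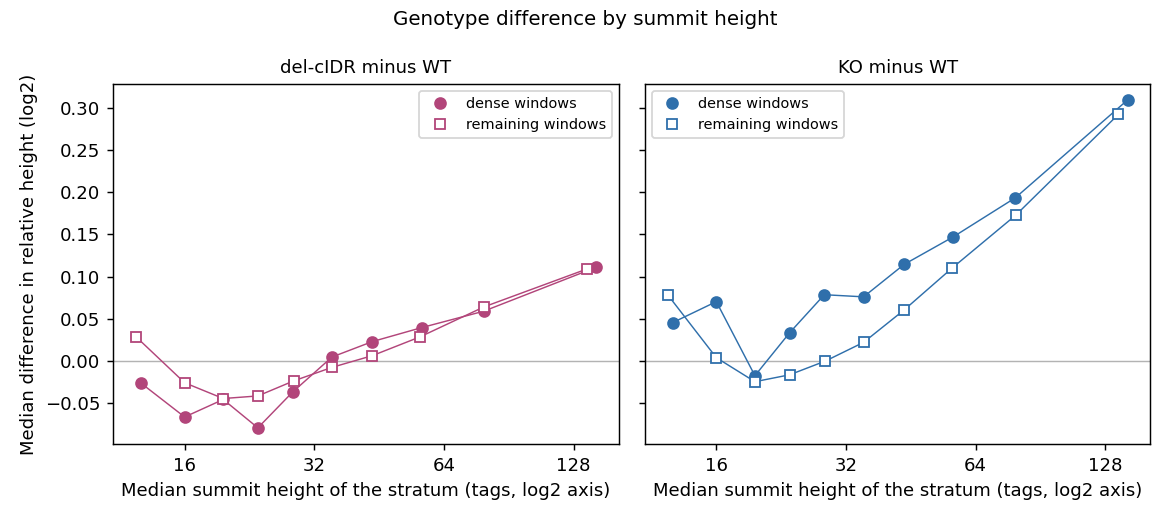
Median difference in relative summit height (log2) from WT in 10 strata of mean height, for del-cIDR (left) and KO (right); filled points are regions of dense windows and open squares the remaining regions. Over the 4 lowest strata neither difference rises steadily, and both are highest in the top stratum, at 0.31 in KO and 0.11 in del-cIDR for dense regions, while dense regions of middle height lie above the remaining ones in KO.

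Single windows were tested with limma on the median relative log2 height of their shared regions, over all 1747 windows with 10 or more such regions. For del-cIDR against WT, 1 of the 55 dense windows was lower with an adjusted p under 0.05 (limma, Benjamini-Hochberg) and 0 were higher, while 0.114% of all windows were lower and 0% higher. Without adjustment, limma put 5 dense windows lower and 1 higher at p under 0.05. The one window that passed is described next. The other 54 dense windows differed from WT by -0.14 to 0.11 log2, with 28 above 0.

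For KO against WT, 14 of the 55 dense windows were higher with an adjusted p under 0.05 (limma) and 0 were lower (4 at an unadjusted p under 0.05). Among all windows 5.5% were higher and 5.09% lower. The 55 values ran from -0.17 to 0.24 log2 and 47 were above 0, with a median of 0.11, against a median of 0.01 over all windows. By density, the median was 0.04 in windows with 10 to 19 shared regions, between -0.01 and 0.00 in those with 20 to 79, 0.04 in those with 80 to 99, and 0.11 in dense windows. The count of 14 rested on the choice of libraries and scale. Fewer windows were higher when 1 library was left out, among dense windows and among all windows. Such a fit leaves 1 genotype with a single library, so only medians are given. Without WT replicate 1 or 2 the dense median was 0.11 and 0.10 log2. Without KO replicate 1 or 2 it was 0.10 and 0.11, and without either del-cIDR library it was 0.11. The count was 7 when heights were taken within strata of mean height (12.7% of dense windows, against 5.72% of all windows). With quantile normalization it was 2 (3.64%, against 4.06%), with 2 lower (3.64%, against 4.18%). Without the trend on the number of regions it was 0, against 1.77% of all windows.

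**Figure D3:**
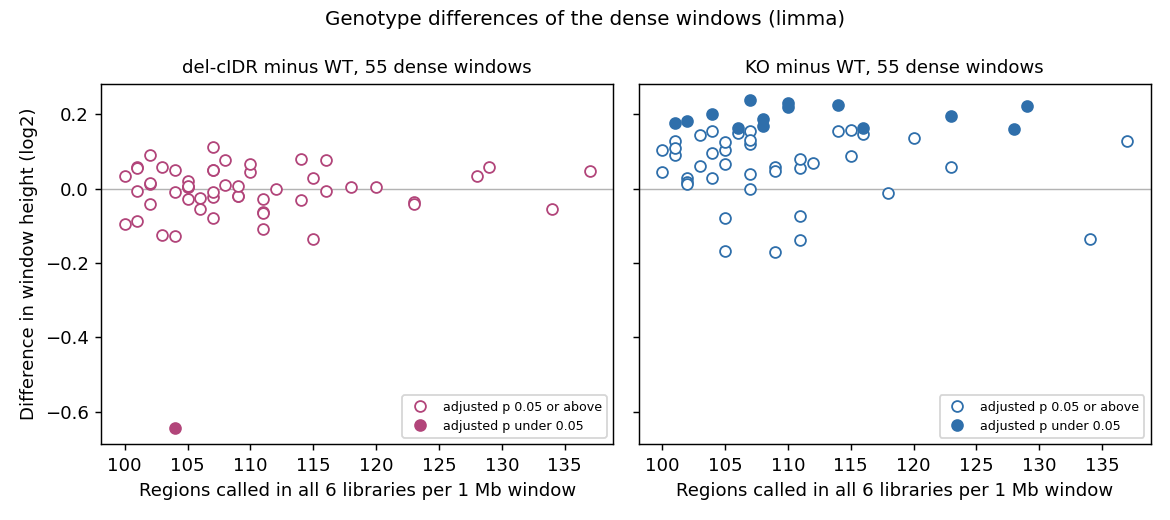
Difference in window height (log2, from limma) of del-cIDR minus WT (left) and KO minus WT (right) for the 55 dense windows, against the number of regions called in all 6 libraries; filled points have an adjusted p under 0.05. In del-cIDR a single window, at -0.64, lies far from the others, and in KO 47 of the 55 lie above 0.

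The largest KO rises were on chromosome 5 from 115 to 116 Mb and chromosome 17 from 47 to 48 Mb. The first had relative heights of 0.68 and 0.82 log2 in KO and 0.49 and 0.53 in WT, a difference of 0.24 (SE 0.06, limma adjusted p = 0.00947). The second had 0.61 and 0.64 in KO and 0.32 and 0.47 in WT, a difference of 0.23 (SE 0.05, limma adjusted p = 0.00883). In both, each KO library lay above each WT library. They were followed by chromosome 19 from 5 to 6 Mb (0.22), chromosome 10 from 80 to 81 Mb (0.22) and chromosome 3 from 88 to 89 Mb (0.22). Each of these 5 windows passed the threshold in only 7 to 9 of 13 alternative settings.

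The window on chromosome 4 from 133 to 134 Mb stood apart. Its relative height was 0.07 and 0.05 log2 in del-cIDR, 0.92 and 0.88 in KO, and 0.69 and 0.71 in WT. Del-cIDR was thus lower than WT by a difference of -0.64 (SE 0.05, limma adjusted p = 1.63e-09). KO was 0.20 above WT (limma adjusted p = 0.015), so that del-cIDR minus KO was -0.84 (limma adjusted p = 2.06e-12). The fall in del-cIDR passed the threshold in all 13 alternatives, at -0.66 to -0.61 and adjusted p of at most 0.0158. The KO rise passed in 8 of 13, at 0.12 to 0.28, with adjusted p up to 0.148.

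In bins of 100 kb the fall in del-cIDR had a step at each end. From 133.1 to 133.9 Mb, 8 bins in a row lay below the WT mean, at -0.92 to -0.58 log2 in del-cIDR replicate 1 and at -0.97 to -0.59 in replicate 2. The bins within 1.5 Mb on either side lay between -0.25 and 0.15 in replicate 1 and between -0.28 and 0.27 in replicate 2. It was the only run of 5 or more bins on the 16 autosomes in which both libraries of a mutant differed from WT by 0.4 or more in the same direction. The stretch was picked from these heights, so it carries no test beyond that of its window.

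**Figure D4:**
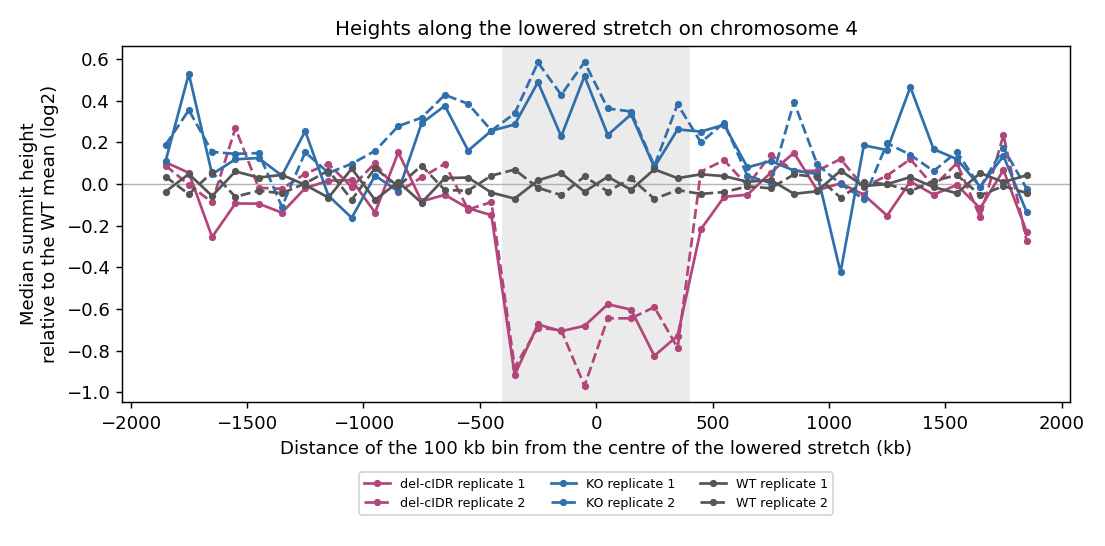
Median summit height relative to the WT mean (log2) in bins of 100 kb around the centre of the lowered stretch on chromosome 4, shown by grey shading, for each library; the 2 WT lines mirror each other because each is set against their mean. Both del-cIDR libraries drop to between -0.97 and -0.58 inside the shading and lie between -0.28 and 0.27 outside it.

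The stretch held 190 merged regions, of which 82 were called in all 6 libraries. All 82 had a lower mean relative height in del-cIDR than in WT, and in 80 of them both del-cIDR libraries lay below both WT libraries. The median difference was -0.69 log2, or 0.619 times WT, and the middle 80% of regions ran from -1.05 to -0.48. Their median height was 31 and 28 tags in del-cIDR, 64.5 and 47 tags in KO, and 51.5 and 59.5 tags in WT. In the 0.8 Mb on each side, 169 shared regions had a median difference of -0.02. In 35 of these 169, both del-cIDR libraries lay below both WT libraries. The same held for 1078 of 5952 shared regions elsewhere in dense windows. Peaks in the stretch were also narrower, with a median width of 348 and 351.5 bp in del-cIDR against 418.5 and 494 bp in WT, while the flanks had 473 and 453 bp in del-cIDR against 480 and 444 bp in WT. The stretch supplied 70 of the 302 shared regions of dense windows in which both del-cIDR libraries lay below both WT libraries and the mean difference was -0.5 or lower. It was picked for low del-cIDR heights, so a large part was built in. The share of such regions over all shared regions was not counted.

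Single regions show where the step lies. On the left, chr4:133066199-133067150 had 97 and 85 tags in del-cIDR, 91 and 69 in KO, and 69 and 89 in WT, a difference of del-cIDR from WT of 0.32 log2. The next shared region, chr4:133075049-133076000, had 19 and 14 tags in del-cIDR, 40 and 27 in KO, and 31 and 33 in WT, a difference of -0.86. On the right, chr4:133937587-133938060 had 27 and 24 tags in del-cIDR, 37 and 26 in KO, and 38 and 54 in WT, a difference of -0.72. The next one, chr4:133972567-133973292, had 108 and 97 tags in del-cIDR, 118 and 88 in KO, and 97 and 107 in WT, a difference of 0.11. The level thus changed between neighbouring shared regions on both sides.

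Calls went the same way. Of the 190 regions, 98 and 100 were called in the del-cIDR libraries, 141 and 129 in KO, and 146 and 150 in WT. Of the 130 regions of the stretch called in both WT libraries, 24 (18.5%) were missing from both del-cIDR libraries, against 7.15% in the other dense regions and 7.66% in the flanks. In the other direction, 12 of the 190 regions of the stretch were specific to KO against WT. In the flanks 4 of 381 regions were, and in the other dense regions 165 of 12631. KO heights were raised in the stretch by a median of 0.38 log2 over the 82 shared regions. Of these, 59 lay higher in both KO libraries than in both WT libraries. The same held for 70 of 169 shared regions of the flanks and 2655 of 5952 of the other dense regions. In KO the 4 bins before the stretch also lay above WT, by 0.16 to 0.43 in the 2 libraries, and the flanks had a KO median of 0.15. Peak height counts DNA fragments, so fewer copies of the stretch and less open chromatin in it cannot be told apart in these lists, and input DNA is not analysed here. The cause of either shift was not tested.

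Genotype-specific calls in dense windows made up shares close to those over all regions. The windows were chosen for regions called in all 6 libraries, which by itself lowers the share of genotype-specific calls, so nothing is read from the small differences. A region is called specific to one genotype against another when both libraries of the first list it and both of the second lack it. Of the 12821 members, 110 (0.858%) were specific to del-cIDR against WT, and 610 (4.76%) to WT against del-cIDR. Over all regions of the 16 autosomes these shares were 0.949% and 5.32%. For KO, 177 members (1.38%) were specific to KO against WT and 863 (6.73%) to WT against KO, where the shares were 1.56% and 7.79% over all regions. Between the mutants, 454 members (3.54%) were specific to del-cIDR and 355 (2.77%) to KO, where the shares over all regions were 3.88% and 2.91%. Listed by the 4 mutant libraries and not in WT were 22 members (0.172%), and listed by the 2 WT libraries alone were 313 (2.44%), where the shares over all regions were 0.184% and 2.81%.

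List length bore on these counts. With all lists cut to equal length, 250 members were specific to del-cIDR and 294 to WT, and in the KO comparison 369 were specific to KO and 512 to WT. Without 1 of the 4 libraries compared, and so with fewer calls required, the count specific to KO was 364 to 765 and that specific to del-cIDR 270 to 532. The count specific to WT was then 1119 to 1727 against KO and 998 to 1469 against del-cIDR. Shares over all regions are not given for the counts without 1 library, so nothing is read from them about dense windows. Calls were scattered over the windows. The regions specific to WT against KO numbered 7 to 24 per dense window, and those specific to KO 0 to 12, with the 12 in the chromosome 4 window from 133 to 134 Mb. This window also had the most regions specific to WT against del-cIDR (27, where the median window had 11) and to KO against del-cIDR (25, where the median was 5).

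At like height, WT regions in dense windows were missing from the mutants more often than those elsewhere. Regions called in both WT libraries were split into 4 equal groups by their WT height. In the second group, with a median of 18.5 tags in dense and 18 tags in remaining windows, 11.4% of dense and 7.18% of remaining regions were missing from both del-cIDR libraries, and 305 of 1695 dense and 14.1% of remaining regions from both KO libraries. In the third, 3.48% of dense and 1.92% of remaining regions were missing from del-cIDR, and 6.70% and 4.44% from KO. In the highest group 12 of 3200 dense regions (0.375%, against 0.149% of the remaining) were missing from del-cIDR and 23 (0.719%, against 0.451%) from KO. In the lowest group 29.9% of dense and 26.7% of remaining regions were missing from del-cIDR, and 35.0% and 33.9% from KO. The dense regions here include the lowered stretch on chromosome 4. The higher shares in dense windows went together with the higher local background given above, which was not matched for height. Its part in them was not tested, and the difference in share was given no test. The share of a list's peaks that lay in dense windows was 6.97% and 6.94% in del-cIDR, 7.06% and 6.92% in KO, and 6.47% and 6.86% in WT. Del-cIDR averaged 6.95% ± 0.021 and KO 6.99% ± 0.098, against 6.67% ± 0.275 in WT (SD, n = 2 each), with an exact permutation p of 0.3333 for either mutant against WT and 1 between the mutants. With equal list lengths the differences from WT were -0.0365 percentage points in del-cIDR and 0.0398 in KO.

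**Figure D5:**
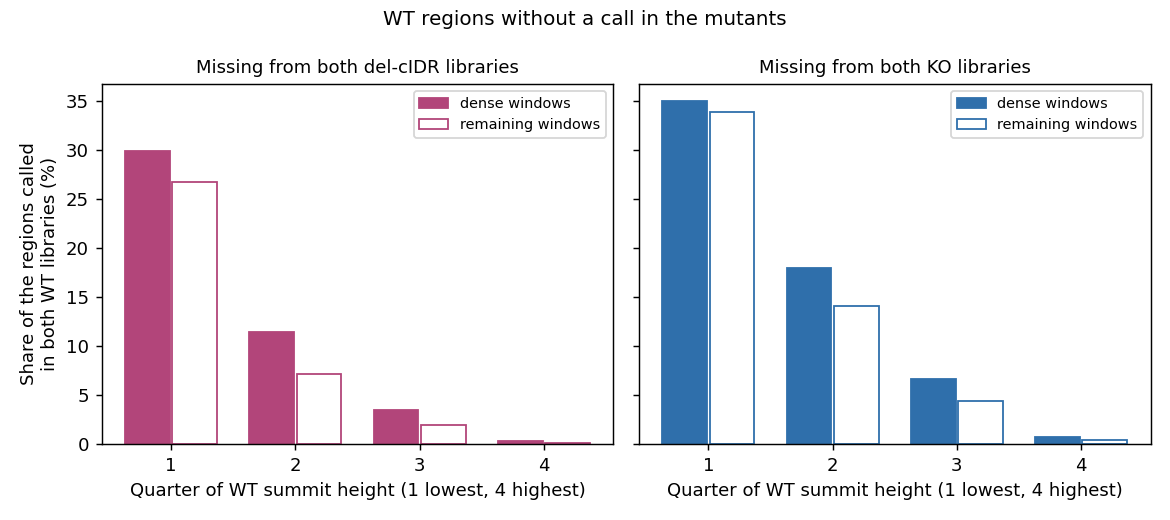
Share (%) of the WT regions, called in each WT library, that had no call in either del-cIDR library (left) or either KO library (right), by 4 equal groups of WT summit height; filled bars are dense windows and open bars the remaining windows. The shares fall with height, and in the second group 11.4% of dense and 7.18% of remaining regions were missing from del-cIDR.

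Among members called in all 6 libraries, those in which both KO libraries lay above both WT libraries made up 45.0% (2714 of 6034), and those in which both lay below 17.6% (1059). Over all shared regions of the 16 autosomes these were 36.5% and 22.7%. For del-cIDR, 25.9% (1560) lay above WT and 19.2% (1158) below, against 23.6% and 20.1%. Set against KO, 17.2% (1039) of members lay higher in both del-cIDR libraries and 41.1% (2478) lower, against 22% and 34.6% over all shared regions. Both del-cIDR and KO are set against the same WT libraries. No single region was tested between lists, and those below were picked for their size.

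The region furthest below WT in KO was chr10:127289347-127290051, 705 bp wide. It had 11 tags in each KO library and 77 and 83 in WT, with 57 and 47 in del-cIDR, so that KO minus WT was -2.62 log2 and del-cIDR minus WT -0.52. The same window held chr10:127860975-127861506, with 11 and 7 tags in KO, against 37 and 27 in WT, a difference of -1.61. It also held chr10:127957071-127957569, with 36 and 40 tags in del-cIDR and 15 and 8 in KO, a difference of 1.66. The window as a whole differed from WT by -0.00051 log2 in KO (SE 0.05, limma adjusted p = 0.996), so it did not share the low level of these regions.

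KO also lay well below WT at chr2:167107850-167108527, with 26 and 18 tags in KO, against 78 and 84 in WT (-1.66 log2). At chr17:35499162-35499781 there were 23 and 19 tags in KO, against 60 and 93 in WT (-1.60). At chr3:96530393-96531038 there were 13 and 14 tags in KO, against 43 and 52 in WT (-1.57). In these 3 regions the del-cIDR libraries lay between -0.49 and -0.15 log2 from WT on average. The regions were picked for their difference in KO, so the sizes in the 2 mutants are not compared.

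Of the 5 regions furthest above WT in KO, 4 lay in 2 windows. On chromosome 17 from 47 to 48 Mb, chr17:47146194-47146584 had 54 and 47 tags in KO, against 18 and 24 in WT (1.52 log2). In the same window, chr17:47121624-47121921 had 127 and 114 tags in KO, against 51 and 53 in WT (1.45). On chromosome 5, chr5:122432172-122432892 had 171 and 147 tags in KO, against 58 and 85 in WT (1.42), and chr5:122679143-122679723 had 51 and 34 in KO, against 14 and 28 in WT (1.31). The fifth, chr17:29696327-29696770, had 59 and 44 tags in KO, against 16 and 34 in WT (1.37). At these regions, in the order named, del-cIDR minus WT was -0.02, 0.46, 0.46, 0.63 and 0.29 log2.

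Of the 5 regions furthest below WT in del-cIDR, 3 lay in the lowered stretch on chromosome 4. They were chr4:133352696-133353953 (-1.36 log2), chr4:133213019-133213497 (-1.19) and chr4:133167071-133168188 (-1.16). The last had 36 and 33 tags in del-cIDR, 126 and 87 in KO, and 66 and 105 in WT. The other two were chr15:79337644-79338512, with 13 and 12 tags in del-cIDR and 27 and 43 in WT (-1.34), and chr10:61628851-61629297, with 22 and 19 in del-cIDR and 50 and 49 in WT (-1.17). At this chromosome 10 region KO had 22 and 23 tags, so both mutants were low. The region furthest above WT in del-cIDR was chr1:135252291-135253202, which had 27 and 24 tags in del-cIDR and 13 and 16 in WT (0.93). It was followed by chr18:75240048-75240790 (0.91), chr2:152926460-152926850 (0.75), chr4:140422010-140422726 (0.73) and chr4:134879480-134879887 (0.71). From the chromosome 1 region on, in the order named, KO minus WT was 0.78, -0.32, 0.28, 0.30 and 0.81 log2.

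The regions named next were missing from both libraries of at least 1 genotype. The tallest KO-specific region of at least 250 bp was chr17:29319193-29319589, in the richest window, with 127 and 120 tags in KO and no call in del-cIDR or WT. It was followed by chr17:47127127-47127507, which had 41 tags in del-cIDR replicate 1 and, in KO, 75 and 47, and by chr15:76089551-76089866, with 50 and 35 tags in KO alone. The region chr19:5739629-5739891 had 27 and 23 tags in del-cIDR and 35 and 35 in KO, and was missing from WT. So were chr2:165985909-165986246, with 28 and 27 tags in del-cIDR and 35 and 16 in KO, and chr3:89870414-89870937, with 23 and 22 in del-cIDR and 26 and 20 in KO. Called in del-cIDR alone was chr17:29641201-29641602, with 26 and 21 tags.

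Among regions missing from KO, the tallest were also open in del-cIDR. The first was chr7:126811528-126811942, with 52 and 63 tags in del-cIDR and 63 and 78 in WT. The next, chr10:61252907-61253267, had 52 and 55 tags in del-cIDR and 58 and 73 in WT. In reverse, chr7:44774541-44774841 was missing from del-cIDR and had 51 and 48 tags in KO, against 45 and 41 in WT. Likewise chr7:28187425-28187783 had 46 and 41 tags in KO, against 35 and 39 in WT, and chr4:133843103-133843376, inside the lowered stretch, 31 and 32 in KO, against 31 and 41 in WT. Missing from all 4 mutant libraries was chr7:45214175-45214580, with 32 and 41 tags in WT. A region without a call may be open below the limit of calling.

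Between the mutants, 18 dense windows were lower in del-cIDR than in KO with an adjusted p under 0.05 (limma) and 1 was higher, against 9.22% and 5.38% of all windows. The 55 values had a median of -0.11 log2, against -0.04 over all windows. Besides the chromosome 4 window from 133 to 134 Mb, the largest falls were on chromosome 4 from 137 to 138 Mb (-0.27, limma adjusted p = 0.00377) and chromosome 17 from 28 to 29 Mb (-0.24, limma adjusted p = 0.00272). They were followed by chromosome 17 from 31 to 32 Mb (-0.22) and chromosome 2 from 32 to 33 Mb (-0.22). These 4 windows passed in 9 or 10 of 13 alternative settings, and the chromosome 4 window from 137 to 138 Mb was at -0.05 within strata of mean height (limma adjusted p = 0.356) and at -0.12 with means. The higher window was on chromosome 4 from 130 to 131 Mb, at 0.17 (limma adjusted p = 0.0399), and passed in 5 of 13. When 1 library was left out, fewer windows were lower, among dense windows and among all windows. The median of the dense windows was then -0.09 log2 without del-cIDR replicate 1 and -0.13 without del-cIDR replicate 2. It was -0.11 without KO replicate 1, -0.09 without KO replicate 2 and -0.11 without either WT library. The count of 18 was 9 within strata of mean height (16.4% of dense windows, against 7.96% of all windows). Regions that differed most included chr5:118639606-118640093, with 24 and 16 tags in del-cIDR and 62 and 50 in KO (-1.64 log2), and chr17:29160988-29161399, with 53 and 57 tags in del-cIDR and 15 and 17 in KO (1.65).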

How the data were processed

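The authors deposited 1 peak list per library; replicates were not pooled. The submitters' processing notes list MACS2, featureCounts, BWA, fastp, Picard and SAMtools, and build GRCm39. Versions, settings and any read shift to the cut site: not given in the sources used here. The fold deposited for each peak is the ratio of summit pileup to local background, with 1 added to both. Its deposited significance is −log10 of p and of q, with no q above 0.05. The deposited score restates the −log10 q and was not used. These are the authors' values, each belonging to its own list.

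Pileup and local background were solved from fold and p; the pileup came out whole within 0.1 tags in 100% of 1016776 peaks. Total reads are not analysed here; the median height of shared regions, 25 to 36 tags per list, stands for depth, and peaks on the sequence named dm (spike-in) were set aside. Mouse peaks that overlapped by 1 bp or more were merged, and a region took its tallest peak in each list. Log2 heights were set against the median of the shared regions of the 16 autosomes in the same list. Window medians were fitted with limma 3.58.1 (R 4.3.3) on genotype over all 6 libraries, moderated with a trend on the number of regions; single values per library were compared by exact permutation (SciPy 1.17.1). The solver, the merging and the fit were tested on simulated data. Members, lists and tests were chosen with earlier results of these data known. The lowered stretch on chromosome 4, the 100 kb bins, the groups by WT height and the local background were looked at after seeing the data. Named windows and regions are those with the largest counts, differences or heights under fixed limits: 250 bp or wider and, for shared regions, 20 tags or more with libraries that do not overlap. Gene groups, markers and sequences were planned and not used, because the reference tables have another build.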

Additional observations from a re-analysis of the deposited data

Results flagged for a closer look

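In 6 dense windows both KO libraries lay above both WT libraries and both del-cIDR libraries lay below both WT libraries. The difference between the mutants also passed 0.05 in limma after Benjamini-Hochberg adjustment. Against WT, del-cIDR passed only on chromosome 4 from 133 to 134 Mb. KO passed against WT there and on chromosome 9 from 21 to 22 Mb. On chromosome 19 from 6 to 7 Mb del-cIDR differed from WT by only -0.02 log2. The share of all windows with this pattern was not counted. On chromosome 4 from 133 to 134 Mb, del-cIDR minus KO was -0.84 log2 (adjusted p = 2.06e-12), and this window passed in all 13 alternative settings. On chromosome 4 from 137 to 138 Mb it was -0.27 (adjusted p = 0.00377), with del-cIDR at -0.25 and -0.10, KO at 0.08 and 0.11, and WT at -0.09 and 0.00, and it passed in 10 of 13. On chromosome 17 from 31 to 32 Mb it was -0.22 (adjusted p = 0.011; 9 of 13 settings), and on chromosome 2 from 32 to 33 Mb -0.22 (adjusted p = 0.00677; 10 of 13). On chromosome 9 from 21 to 22 Mb it was -0.22 (adjusted p = 0.00962; 8 of 13), and on chromosome 19 from 6 to 7 Mb -0.17 (adjusted p = 0.028; 4 of 13). The last was at 0.03 with regions of 20 tags or more only (adjusted p = 0.715), the other sign. With 2 libraries per genotype no library could be checked as standing apart from its group.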

How the results depend on the processing

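The number of dense windows was 196 with a limit of 80, 7 with a limit of 120 and 16 with peaks of −log10 q of 5 or more; it was 63 with windows shifted by 0.5 Mb and 54 with an overlap of 100 bp. Dense minus remaining height, KO minus WT (0.11), was 0.0722 with a limit of 80, 0.0402 in strata, 0.0673 with means and 0.0858 for regions of 250 bp or wider. For del-cIDR minus WT (0.04) it was -0.0101 in strata, 0.000384 with means and 0.00299 for wider regions. For del-cIDR minus KO (-0.07) it was -0.0383 with a limit of 80, -0.0971 with 120, -0.0914 at 20 tags or more, -0.0503 in strata and -0.0828 for wider regions. The share of peaks in dense windows, del-cIDR minus WT, was -0.0365 percentage points with equal lists and 0.744 with a limit of 80; del-cIDR minus KO was -0.289 at the stricter q and 0.128 with a limit of 80. The causes of these shifts were not tested.

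Counts of genotype-specific members scale with the number of windows by construction. With limits of 80 and 120 they were 573 and 28 (KO not WT), 2962 and 109 (WT not KO), 357 and 22 (del-cIDR not WT), 1920 and 78 (WT not del-cIDR), 1535 and 68 (del-cIDR not KO), and 1081 and 47 (KO not del-cIDR). With equal lists the first 4 were 369, 512, 250 and 294. Each was a smaller share of the dense than of the remaining regions. The choice of windows by itself lowers such shares, so nothing is read from this. Leaving out 1 library gave 364 to 765, 1119 to 1727, 270 to 532, 998 to 1469, 627 to 1070 and 581 to 1118 in the same order. For equal lists, for the other limits and for the left-out libraries, shares over all regions are not given.

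Of dense windows, those higher in KO than in WT (14) numbered 42 with means, 2 with quantile normalization, 7 in strata, 0 without the trend and 0 to 8 without 1 library. Those lower in KO (0) numbered 1 with 20 or more regions per window, 1 with means, 2 with quantile normalization and 1 in strata. Among all windows the lower shares were 5.58%, 8.82%, 4.18% and 8.87%. For del-cIDR minus WT, means gave 2 higher and 2 lower (3.64% each, against 1.26% and 2.58% of all windows). For del-cIDR minus KO, the higher ones (1) numbered 2 with means, 0 at 20 tags or more, 3 in strata and 0 without the trend. Among all windows the higher shares were 9.62%, 6.34%, 9.16% and 1.89%. The lower ones (18) numbered 43 with means, 6 with quantile normalization, 9 in strata, 1 without the trend and 2 to 12 without 1 library. Strata for windows and settings without the lowered chromosome 4 window were added after seeing the data; without that window, the share of peaks in del-cIDR minus KO was -0.00168 percentage points in place of -0.0387.

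Libraries with the same replicate number did not deviate together in scaled window heights (correlations of -0.00375 to 0.0502). Heights were scaled within each list, which takes out list-wide effects, so this does not show whether such libraries shared a preparation. With the replicate block, 10 dense windows were higher in KO than in WT (18.2%, against 4.35% of all windows). In del-cIDR, 1 was lower than in WT (1.82%, against 0.0572%). Against KO, 15 were lower in del-cIDR (27.3%, against 7.61%) and 1 was higher (1.82%, against 4.12%). The depth of the lists limits calls near the threshold, where a missing call does not show closed chromatin.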

Other observations

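The chromosomes that were left out also held windows of this kind. By the same count, chromosome 11 had 15 windows with 100 or more regions called in all 6 libraries out of 119, with up to 139 in 1 window. Chromosome 8 had 7 of 128 and chromosome 6 had 1 of 147. The X chromosome had 0 of 162, and its richest window held 67.

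Summits of shared regions moved little between libraries. The distance between the outermost of the 6 summit positions of a region had a median of 63 bp in dense windows and 70 bp elsewhere.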
